A study of Mus musculus with 12 samples.

Results

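The genes described here are the 4 Id genes (Id1, Id2, Id3 and Id4) and the 3 E-protein genes (Tcf3, Tcf4 and Tcf12), followed over 3 days of Neurog1 expression in mouse embryonic stem (ES) cells. They were chosen by symbol, and each was read from the probe set with the highest mean over all 12 arrays among those annotated to that symbol alone. They are 7 of the 18193 genes with such a probe set, and all 7 passed the filter on low signals that left 12629 genes for testing. By Entrez identifier, Tcf3 is the gene of E2A (21423), Tcf4 that of E2-2 (21413) and Tcf12 that of HEB (21406). In the RefSeq gene table of GRCm38.p6, Id1 lies on chromosome 2, Id2 on 12, Id3 on 4, Id4 on 13, Tcf3 on 10 and Tcf12 on 9. The Wnt effectors with similar older names, Tcf7l1 and Tcf7l2, are other genes.

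The study put Neurog1, a proneural basic helix-loop-helix (bHLH) transcription factor, under a tetracycline-sensitive promoter in ES cells of the strain 129P2/OlaHsd (E14, Ainv15). All 4 groups carried the transgene and grew in serum medium with leukaemia inhibitory factor (LIF), puromycin and G418. Cells induced with 1 ug/ml doxycycline for 24, 48 or 72 h were set against uninduced cells (0 h), with 3 Affymetrix arrays in each group that the labels call biological replicates. No uninduced culture was followed in parallel for 24 to 72 h, and effects of Neurog1, of doxycycline and of culture time therefore cannot be told apart.

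bHLH factors bind DNA in pairs, and a tissue-specific factor such as Neurog1 normally pairs with a broadly expressed E protein to bind the E-box, a short site with the letters CANNTG. Id proteins have the helix-loop-helix but no basic region: they take up E proteins into pairs that cannot bind DNA, and so act as inhibitors of bHLH factors. In ES cells, bone morphogenetic protein (BMP) signals acting through Smad proteins are known to switch on Id genes, which together with LIF hold back neural differentiation.

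Of the 7 members, 5, those other than Id1 and Tcf4, had entries in the RefSeq promoter table (GRCm38.p6). The 250 bases before the start of 3 Id genes are printed because these genes differed in course: Id2 and Id4 rose, whereas Id3 fell at 24 h. Capitals mark the E-box CANNTG and the palindrome GGCGCC, a core of published Smad1 sites, each searched on both strands.

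Id2, chr12:25096093-25096342, minus strand: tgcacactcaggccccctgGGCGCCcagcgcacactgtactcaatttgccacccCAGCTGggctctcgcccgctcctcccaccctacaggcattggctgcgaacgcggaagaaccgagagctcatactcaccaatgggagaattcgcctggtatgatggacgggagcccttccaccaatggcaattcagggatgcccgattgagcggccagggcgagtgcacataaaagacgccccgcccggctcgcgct
Id3, chr4:136143572-136143821, plus strand: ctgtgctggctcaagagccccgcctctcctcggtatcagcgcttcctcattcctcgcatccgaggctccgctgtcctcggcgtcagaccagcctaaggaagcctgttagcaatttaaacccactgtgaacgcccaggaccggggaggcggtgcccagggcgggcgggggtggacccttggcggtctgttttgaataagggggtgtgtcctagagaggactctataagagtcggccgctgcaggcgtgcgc
Id4, chr13:48260866-48261115, plus strand: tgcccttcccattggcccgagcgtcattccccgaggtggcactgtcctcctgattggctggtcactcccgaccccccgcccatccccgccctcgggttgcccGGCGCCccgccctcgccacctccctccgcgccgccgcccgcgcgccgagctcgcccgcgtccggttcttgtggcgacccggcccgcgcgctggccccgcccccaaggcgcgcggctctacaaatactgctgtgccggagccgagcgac

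The Id2 window held 1 E-box, CAGCTG, with its first base at position -196 from the start, and 1 GGCGCC. The Id4 window held 1 GGCGCC and no CANNTG, and the Id3 window held neither set of letters. Tcf3 had 1 E-box in its window, and of the 3 windows listed for Tcf12, 2 had 1 each. Of all 32851 windows of 250 bases in the table, 66.2% held CANNTG and 9.59% held GGCGCC. The E-box preferred by neurogenins, CAGATG, was in no member's window and in 14.4% of all windows. These matches describe letters and not binding, which the arrays did not measure.

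The labels were checked on Neurog1 and on cell type markers. Neurog1 had signals of 4.53 to 18.7 on the uninduced arrays and of 465 to 1152 on the 9 induced arrays. All 8 ES cell markers lay above their array's median on every uninduced array, and their summed signal was 37047 to 41880 in uninduced cells, 20866 to 24679 at 24 h, 5667 to 8680 at 48 h and 4980 to 5326 at 72 h. The brightest was Dppa5a, with 12950 to 18369 in uninduced cells. At 24 h Pou5f1 (3295 to 6676, against 4936 to 6063) and Sox2 overlapped their uninduced ranges. Sox2 was still at 1918 to 2425 at 72 h, against 4102 to 4906 in uninduced cells. The summed signal of 8 neuronal markers was 3922 to 4333 in uninduced cells, 1727 to 4282 at 24 h, 9896 to 14137 at 48 h and 22786 to 25149 at 72 h. Most of that sum in uninduced cells was Stmn2, with signals of 686 to 1654 at 24 h, against 3222 to 3649 in uninduced cells. Nefl was also lower at 24 h, with 65.1 to 101 against 200 to 243. Tubb3, Dcx, Elavl4 and Map2 were higher on every 24 h array than on any uninduced one, and Elavl3 and Snap25 overlapped. The mean log2 value of the 8 markers was 7.06 to 7.66 at 24 h, against 6.73 to 6.78 in uninduced cells. In such bulk samples, fewer cells of a type and less RNA per cell cannot be told apart. The array of replicate 1 at 24 h stood apart: it correlated at 0.804 and 0.826 with its own group, whereas every other pair within a group reached at least 0.961. The 24 h differences from uninduced cells are therefore also given without it.

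Values are signals on the authors' linear scale, scaled to a 2% trimmed mean of 150 on every array. Differences are log2 differences ± standard error (SE) of log2(signal + 16) from a limma fit to all 12 arrays, with n = 3 arrays in each group and p-values adjusted by Benjamini-Hochberg over 12629 genes. A gene is said to have risen or fallen where that adjusted p was under 0.05. Adding 16 understates the change of dim genes. The probe sets differ in brightness for reasons of their own, so no gene's signal is set against another's.

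After 24 h of induction, 1 member had risen (Id4) and 1 had fallen (Id3), while 10.1% of the 12629 genes tested were called. After 48 h, 5 members had risen (Id2, Id4, Tcf3, Tcf4 and Tcf12) and none had fallen, against 21.1% of all genes called higher. After 72 h, 4 had risen (Id2, Id4, Tcf4 and Tcf12) and none had fallen, against 23.8% of all genes called higher. The median log2 difference of the 7 members was 0.71, 1.81 and 1.71 at 24, 48 and 72 h, and that of all genes tested was 0.10, 0.10 and 0.08. The 3 comparisons share the uninduced arrays. Induced and uninduced arrays did not overlap for 3, 6 and 5 of the 7 members at 24, 48 and 72 h, which was so for 25.5%, 59.5% and 62.3% of all genes tested.

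**Figure D1:**
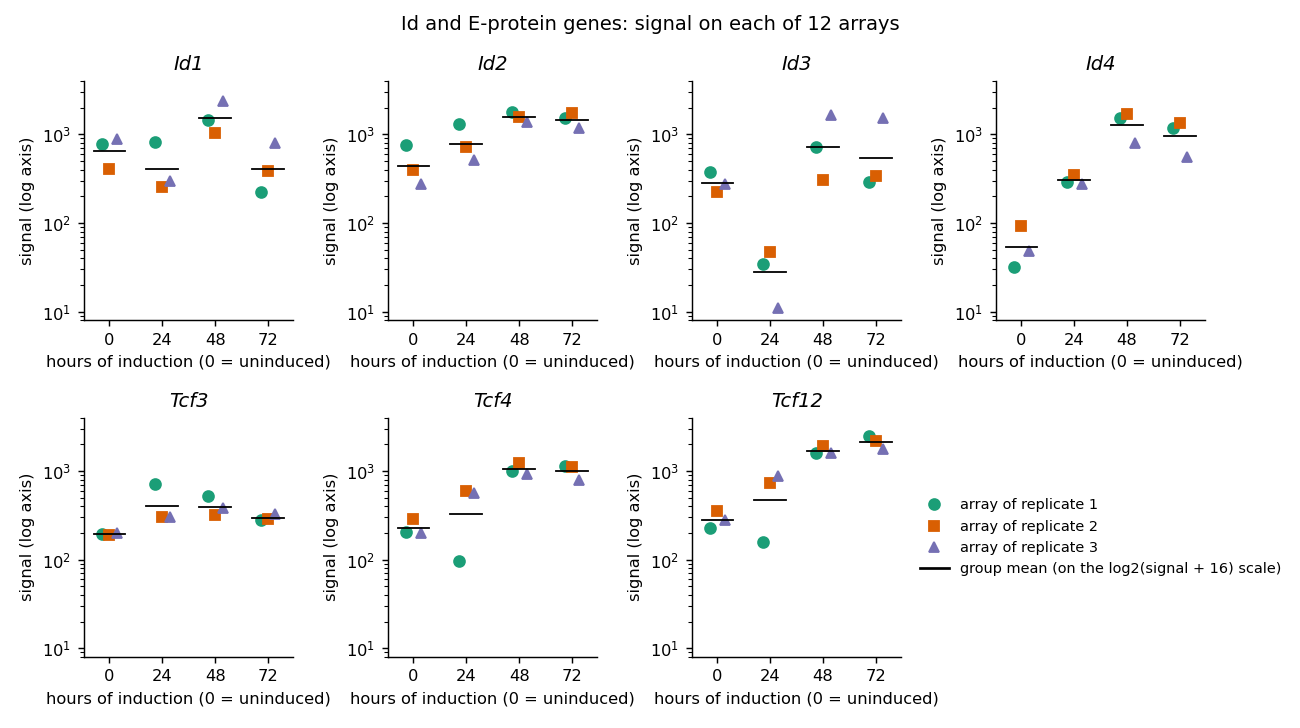
Signal (log axis) of each Id and E-protein gene on the 12 arrays by hours of induction, with 1 symbol per replicate number and a bar at the group mean on the log2(signal + 16) scale. Id4 lay between 32.1 and 93.4 on the uninduced arrays and between 552 and 1338 at 72 h; Id3 lay between 10.9 and 46.8 at 24 h and between 224 and 374 on the uninduced arrays.

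Id4, the Id gene best known from neural progenitors and glia, had the largest differences from uninduced cells among the 7 at 48 and 72 h. Its signal was 32.1, 93.4 and 48.0 in uninduced cells, 291, 345 and 273 at 24 h, 1521, 1709.7 and 807 at 48 h, and 1195, 1338 and 552 at 72 h (replicates 1, 2 and 3 in each group). Every induced array lay above every uninduced array, and every array at 48 and 72 h lay above every array at 24 h. The difference from uninduced cells was 2.19 ± 0.40 at 24 h (adjusted p = 0.00402), 4.22 ± 0.40 at 48 h (adjusted p = 7.55e-06) and 3.81 ± 0.40 at 72 h (adjusted p = 1.02e-05). On the fitted scale these were 4.56-fold, 18.7-fold and 14.0-fold. The 48 h value was the 61st largest rise among the 12629 genes. Between induced times, Id4 was 2.03 ± 0.40 higher at 48 h than at 24 h (adjusted p = 0.00396) and 1.62 ± 0.40 higher at 72 h than at 24 h (adjusted p = 0.00860).

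Id2, an Id gene expressed in many differentiating tissues, was called higher at 48 and 72 h and not at 24 h. Its signal was 761, 395 and 275 in uninduced cells, 1314, 728 and 508 at 24 h, 1806, 1558 and 1392 at 48 h, and 1541, 1756 and 1165 at 72 h. The 24 h arrays overlapped the uninduced ones, and all 6 later arrays lay above all 3 uninduced ones. The difference from uninduced cells was 0.83 ± 0.38 at 24 h (adjusted p = 0.196), 1.81 ± 0.38 at 48 h (adjusted p = 0.00266) and 1.71 ± 0.38 at 72 h (adjusted p = 0.00292). The step between 24 and 48 h, 0.99 ± 0.38, did not pass (adjusted p = 0.0938), and it passed with the replicate number as a block (adjusted p = 0.0237) and without replicate 1 of 24 h (1.35 ± 0.32, adjusted p = 0.00788). The 24 h difference from uninduced cells without that array was 0.46 ± 0.32 (adjusted p = 0.333).

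Id3, one of the Id genes that BMP signals switch on in ES cells, was low at 24 h alone. Its signal was 374, 224 and 272 in uninduced cells, 34.2, 46.8 and 10.9 at 24 h, 712, 303 and 1666 at 48 h, and 291, 338 and 1540.0 at 72 h. All 3 arrays at 24 h lay below the 9 others, and the arrays at 48 and 72 h reached into or above the uninduced range. Id3 was lower at 24 h than in uninduced cells by a log2 difference of -2.77 ± 0.64 (adjusted p = 0.0163), or 6.83-fold, the 12th largest fall among the 12629 genes. The call was lost without uninduced replicate 1 (adjusted p = 0.0765), without uninduced replicate 3 (0.0531) and with 64 in place of 16 added to the signal (0.0520), while the difference kept its sign.

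At 48 and 72 h Id3 differed from uninduced cells by 1.29 ± 0.64 (adjusted p = 0.145) and 0.88 ± 0.64 (adjusted p = 0.299). From 24 to 48 h Id3 rose by 4.06 ± 0.64, or 16.6-fold (adjusted p = 0.00107), the 8th largest rise of the 12629 genes in that comparison. Its 72 h level was 3.65 ± 0.64 above that of 24 h (adjusted p = 0.00113), and 72 h against 48 h gave -0.40 ± 0.64.

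Id1, the other classical BMP target among the Id genes, was highest at 48 h. Its signal was 779, 403 and 891 in uninduced cells, 829.6, 256 and 300.4 at 24 h, 1466, 1038 and 2384 at 48 h, and 221, 387 and 796 at 72 h. The 3 arrays at 48 h lay above the 9 others, whereas the arrays of the other groups overlapped each other. No difference from uninduced cells passed: it was -0.68 ± 0.52 at 24 h (adjusted p = 0.445), 1.21 ± 0.52 at 48 h (adjusted p = 0.0906) and -0.65 ± 0.52 at 72 h (adjusted p = 0.343). Without replicate 1 of 24 h the 48 h difference, of the same size, passed with an SE of 0.41 (adjusted p = 0.0221).

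Between induced times, Id1 rose by 1.90 ± 0.52, or 3.72-fold, from 24 to 48 h (adjusted p = 0.0255). That call was lost under 6 of the 24 alternative settings, among them leaving out replicate 2 or 3 of 24 h or replicate 1 or 3 of 48 h (adjusted p = 0.0549 to 0.102) and a fit of the 6 arrays compared alone (0.0624). Its 72 h value against 48 h was -1.87 ± 0.52, the 8th largest negative difference of the 12629 genes, and did not pass (adjusted p = 0.161). Without replicate 1 of 24 h it passed (-1.87 ± 0.41, adjusted p = 0.0240).

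At 48 and 72 h the arrays of replicate 3 had the highest Id1 and Id3 signals and the lowest Id4 signals of their groups. On the same arrays the summed signal of 6 radial glia and astrocyte markers was 237 at 48 h and 588 at 72 h, against 791 to 923 and 1507 to 1559 on the other arrays of those times. Fabp7 alone gave 156 to 861 of these sums at 48 h and 543 to 1492 at 72 h, Gfap stayed at or below 17.9, and 2 of the 6 markers at 48 h and 1 at 72 h lay above the median of every array. The part of replicate 3 in the Id values was not tested beyond leaving arrays out. On the replicate 3 arrays 5 endoderm markers had their highest sums of both times, 299 against 186 and 260 at 48 h and 433 against 168 and 203 at 72 h, with Afp at or below 9.54. The 8 neuronal markers summed to 9896 on replicate 3 at 48 h, against 13623 and 14137, and to 25149 at 72 h, against 22786 and 23646. Without the 4 arrays numbered 3, the 48 h against 24 h difference of Id1 was 1.38 ± 0.59 (adjusted p = 0.173).

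Tcf12 encodes HEB, an E protein that is prominent in neural progenitors and developing lymphocytes, and it had the largest rise of the E-protein genes. Its signal was 225, 356 and 280.3 in uninduced cells, 158, 739.7 and 876 at 24 h, 1608, 1901 and 1599 at 48 h, and 2486, 2186 and 1763 at 72 h. At 24 h replicate 1 lay below the uninduced range and the other 2 arrays above it, and at 48 and 72 h all arrays lay above every uninduced and 24 h array. The difference from uninduced cells was 0.71 ± 0.47 at 24 h (adjusted p = 0.379), 2.52 ± 0.47 at 48 h (adjusted p = 0.00128) and 2.84 ± 0.47 at 72 h (adjusted p = 0.000404), or 5.74-fold and 7.17-fold at the later times. Tcf12 was also higher at 48 h than at 24 h (1.81 ± 0.47, adjusted p = 0.02) and at 72 h than at 24 h (2.13 ± 0.47, adjusted p = 0.00501). The 48 h against 24 h call was lost under 5 of the 24 alternatives, among them leaving out any 1 of the 48 h arrays (adjusted p = 0.0512 to 0.0733) and a fit of the 6 arrays compared alone (0.114).

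Tcf4 encodes E2-2, the E protein best known from plasmacytoid dendritic cells and the developing brain. Its signal was 206, 289 and 199 in uninduced cells, 96.8, 594 and 561 at 24 h, 1004, 1228 and 926 at 48 h, and 1142, 1098 and 799 at 72 h. Replicate 1 at 24 h was again below the uninduced range, and the 6 arrays at 48 and 72 h lay above all others. The difference from uninduced cells was 0.48 ± 0.50 at 24 h (adjusted p = 0.587), 2.12 ± 0.50 at 48 h (adjusted p = 0.00579) and 2.06 ± 0.50 at 72 h (adjusted p = 0.00542), or 4.35-fold and 4.16-fold at the later times. Tcf4 was 1.64 ± 0.50 higher at 48 h than at 24 h (adjusted p = 0.0422) and 1.58 ± 0.50 higher at 72 h than at 24 h (adjusted p = 0.0323), calls that were lost under 13 and 5 of the 24 alternatives. Without the 4 arrays numbered 3, the 48 h difference from uninduced cells was 2.11 and did not pass (adjusted p = 0.0590).

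Tcf3, whose E2A proteins are the best studied partners of tissue-specific bHLH factors, had the smallest 48 and 72 h differences of the E-protein genes. Its signal was 196, 189 and 201 in uninduced cells, 723, 306 and 301 at 24 h, 524, 316 and 378 at 48 h, and 277, 286 and 330.4 at 72 h. All 9 induced arrays lay above all 3 uninduced ones, which spanned a narrow range. The difference from uninduced cells was 1.00 ± 0.31 at 24 h (adjusted p = 0.0645), 0.97 ± 0.31 at 48 h (adjusted p = 0.0308) and 0.57 ± 0.31 at 72 h (adjusted p = 0.172). With the replicate number as a block the 24 h difference passed (adjusted p = 0.0423). The 48 h call was lost without any 1 of the 3 uninduced arrays (adjusted p = 0.0694 to 0.0780), without replicate 1 or 3 of 48 h, without all arrays numbered 3 (0.141), and after quantile normalization (0.0654).

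Replicate 1 of 24 h was the array on which Tcf4 and Tcf12 were lowest and Tcf3 highest in the series. Without it, the 24 h difference from uninduced cells was 1.28 ± 0.20 for Tcf4 (adjusted p = 0.000618), 1.46 ± 0.19 for Tcf12 (adjusted p = 0.000196) and 0.59 ± 0.19 for Tcf3 (adjusted p = 0.0384), so that all 3 passed. Id4 and Id3 then gave 2.22 ± 0.41 and -2.87 ± 0.69, close to their values on all arrays, and Id1 gave -1.19 ± 0.45 (adjusted p = 0.0763). Of the 7 members, 4 were then called higher and 1 lower at 24 h, while 23.4% of the 12416 genes tested without that array were called. The same array had the highest summed signal of 5 trophoblast markers in the series, 2608 against 416 and 1046 on the other 24 h arrays and 259 to 1089 on the uninduced ones. Krt8, an epithelial keratin on that list, reached 1962 there. Krt18 had signals of 113 to 547 at 24 h, against 59.2 to 502 in uninduced cells. Eomes had 57.0 to 78.3 against 35.2 to 71.7, while Cdx2 and Elf5 stayed at or below 19.2 and 8.71 on every 24 h array. The part of these markers in the 24 h values was not tested.

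**Figure D2:**
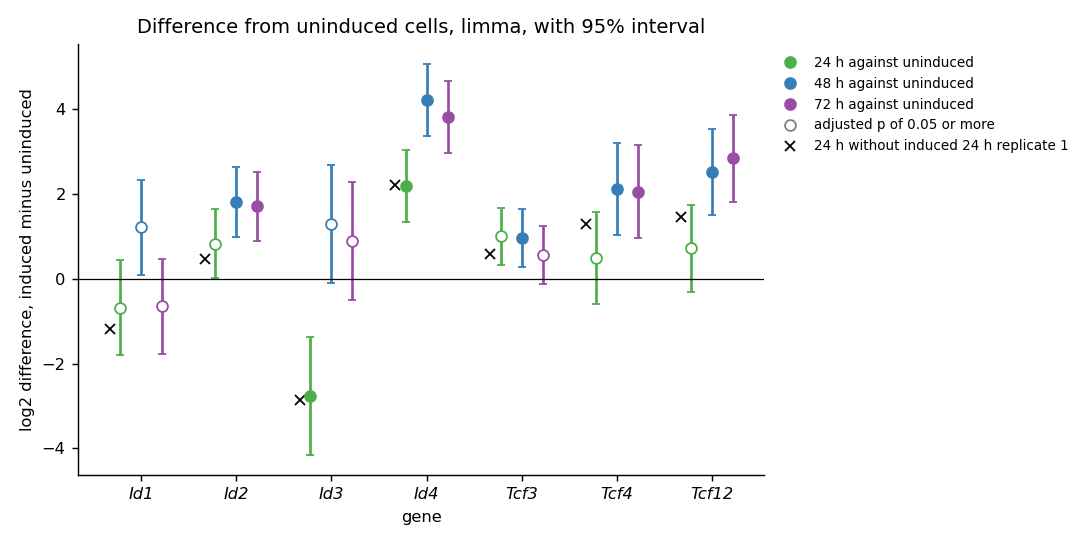
Log2 difference from uninduced cells of each gene after 24, 48 and 72 h, with the 95% interval from the limma fit; filled points had an adjusted p under 0.05, and crosses give the 24 h value without replicate 1 of that time. Id3 lies at -2.77 at 24 h, and Id2, Id4, Tcf4 and Tcf12 lie between 1.71 and 4.22 at 48 and 72 h.

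Between 24 and 48 h, 5 of the 7 members rose (Id1, Id3, Id4, Tcf4 and Tcf12) and none fell, against 9.37% of all genes called higher. The calls on Id1, Tcf4 and Tcf12 were lost under 6, 13 and 5 of the 24 alternatives, and those on Id3 and Id4 under none. Between 48 and 72 h no member was called by limma, when 0.681% of all genes were; Id1 alone had an unadjusted p under 0.05 there. From 24 to 72 h, 4 members rose (Id3, Id4, Tcf4 and Tcf12), against 15.1% of all genes called higher. The members followed different courses. In the main fit Id4 was called higher at all 3 times, and Id2, Tcf4 and Tcf12 at 48 and 72 h. Tcf3 was called higher at 48 h only, Id3 was lower at 24 h only, and Id1 lay at its highest at 48 h. Without replicate 1 of 24 h, Tcf3, Tcf4 and Tcf12 were called higher at 24 h too. For Id2 the step from 24 to 48 h did not pass (adjusted p = 0.0938). A start at 48 h is therefore not shown for Id2, Tcf4 or Tcf12.

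All 22 probe sets of the members passed the filter, among the 22951 probe sets tested in a fit of all probe sets. Id1 and Id3 had 1 probe set each. At 24 h 3 were called higher and 1 lower, and at 48 and 72 h 16 were called higher and none lower. The share of all probe sets called in that fit is not given here. Probe sets of the same gene read the same gene again, so these counts are a description and no separate support. For Id4 all 3 probe sets rose at each time, with differences of 1.49 to 2.19 at 24 h, 3.72 to 4.22 at 48 h and 3.25 to 3.81 at 72 h. For Id2 all 3 rose at 48 and 72 h, by 1.36 to 1.81 at 48 h. Of the 6 probe sets of Tcf4, 5 rose at 48 and 72 h, by 1.26 to 2.91 at 48 h, and the dimmest, with signals of 9.77 to 64.3 over all arrays, gave 0.21 ± 0.32 at 48 h.

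Tcf12 and Tcf3 differed more between their probe sets. For Tcf12 the 3 probe sets with rises of 1.62 to 2.72 at 48 h stood beside 2 dim ones at 0.29 ± 0.34 and 0.35 ± 0.23, with signals of at most 63.1 on any array. The latter passed at 72 h (0.72 ± 0.23, adjusted p = 0.0231) and the former did not. The dimmest of the 3 that rose at 48 h was also dim, with signals of at most 79.0 on any array. For Tcf3 the 48 h differences were 0.97 ± 0.32, 1.00 ± 0.41 and 1.13 ± 0.31, of which the first and the last passed in the fit of all probe sets. At 72 h only the last, the dimmest, passed (1.01 ± 0.31, adjusted p = 0.0217), so the Tcf3 probe sets differ in their 72 h call. Which transcript forms the probe sets read was not examined.

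**Figure D3:**
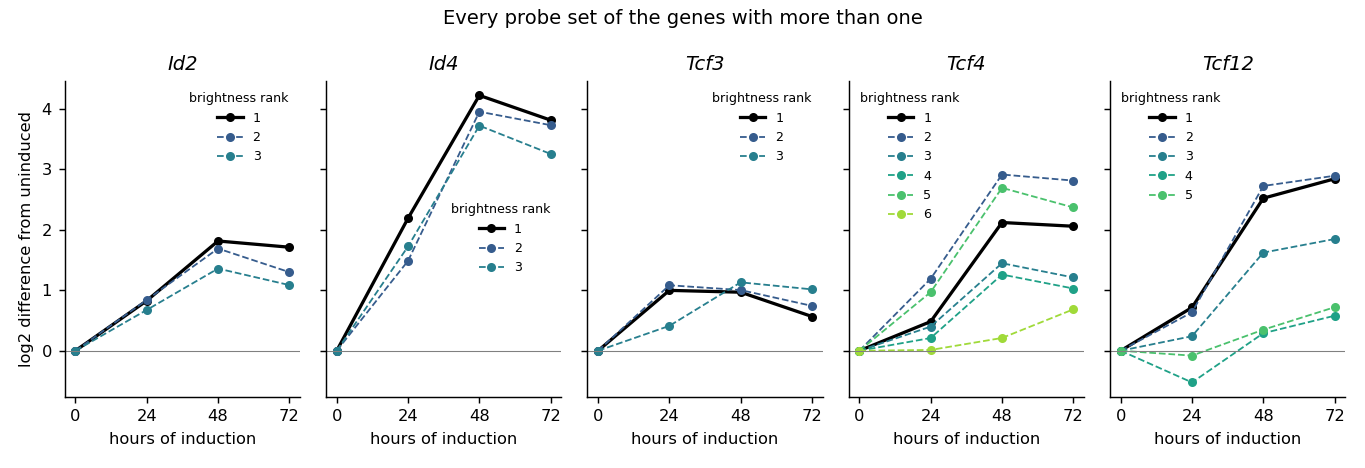
Log2 difference from uninduced cells against hours of induction for every probe set of the genes with more than 1, ranked by brightness, with rank 1 used for the gene. All 3 probe sets of Id4 lie between 3.72 and 4.22 at 48 h, whereas those of Tcf12 lie between 0.29 and 2.72.

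The genes with the most similar course were ranked by Pearson's r of log2(signal + 16) over the 12 arrays, which share the same 4 groups and the same array that stood apart, so high values arise readily. Tcf12 was closest to Mapk8 (r = 0.997), Pgm2l1 (0.993) and Rfx3 (0.991), and Tcf4 to Btbd7 (0.989), Bbip1 (0.987) and Mib1 (0.985). Id4 was closest to Pkib (0.983), Fgfrl1 (0.982) and Tmem150c (0.982), Id2 to Rundc3a (0.967), Ralgds (0.964) and Rhbdl3 (0.956), and Tcf3 to Rab22a (0.952), Polr3d (0.948) and Tm9sf4 (0.946). Id3 (Emb, 0.906; Gna14, 0.900; Pfkfb3, 0.863) and Id1 (Hilpda, 0.880; Tm2d3, 0.820; Nradd, 0.818) had the lowest values at the top of their rankings. Without replicate 1 of 24 h, over 11 arrays, Tcf12 kept Mapk8 in first place (0.997), Id2 kept Rundc3a (0.977) and Id3 kept Emb (0.938). The first place of Id4 was then Peli1 (0.993), of Tcf4 Ccng2 (0.993), of Tcf3 Cables1 (0.950) and of Id1 Tm2d3 (0.896).

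Genes of the BMP pathway, upstream of Id genes, included both genes that rose and genes that fell. Of 21 tested genes on the list, 1 was higher and 2 were lower at 24 h, 7 and 2 at 48 h, and 9 and 3 at 72 h. Of all genes tested, 7.36% were higher and 2.76% lower at 24 h, 21.1% and 13.0% at 48 h, and 23.8% and 17.5% at 72 h, so the share of BMP genes called lower was close to that background at 48 and 72 h. Without replicate 1 of 24 h, 6 were higher and 2 lower at 24 h, against 15.1% and 8.34% of the 12416 genes tested without it. The share of the list called lower was then close to that background too. The median difference of the list was 0.48, 0.82 and 0.77. Bmp4, a ligand of the pathway, had signals of 69.0 to 138 at 24 h and 65.0 to 119.5 at 72 h, against 608 to 676 in uninduced cells, with no overlap. Its differences were -2.46 ± 0.36 at 24 h (adjusted p = 0.000986) and -2.52 ± 0.36 at 72 h (adjusted p = 0.000129), while 48 h gave -0.98 ± 0.36 and did not pass (adjusted p = 0.0510).

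Of the inhibitory Smads, feedback inhibitors that the pathway itself is known to induce, Smad7 was lower at all 3 times and Smad6 at 48 and 72 h. Smad7 had signals of 33.5 to 63.3, 29.9 to 34.7 and 31.8 to 62.8 at 24, 48 and 72 h, against 196 to 353 in uninduced cells, and its differences were -2.14, -2.40 and -2.04 (SE 0.29; adjusted p = 0.000586, 4.99e-05 and 0.000118). Smad6 fell at 48 h (-1.17 ± 0.36, adjusted p = 0.0229), a call lost under 4 of the 24 alternative settings. It also fell at 72 h (-1.28 ± 0.36, adjusted p = 0.0119), and its 24 h difference of -0.80 ± 0.36 did not pass (adjusted p = 0.189). The genes that rose most were Rgmb, a BMP co-receptor, by 1.21 ± 0.30, 2.39 ± 0.30 and 2.98 ± 0.30 at the 3 times, and Smad1, a signal-transducing Smad, by 2.33 ± 0.25 at 72 h. Acvr2a, a receptor, rose by 1.57 ± 0.45 at 48 h (adjusted p = 0.0165; lost under 4 alternatives). The 24 h rise of Rgmb (adjusted p = 0.0209) was lost under 6. The 24 h differences without replicate 1 were -2.22 for Bmp4, -2.03 for Smad7 and 0.88 for Rgmb.

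At 24 h Id3, Bmp4 and Smad7 were called lower than in uninduced cells, whereas Id1 was not (-0.68 ± 0.52, adjusted p = 0.445). At 48 and 72 h the signals of Bmp4 and Smad7 still lay below their uninduced ranges, though Bmp4 did not pass at 48 h. Those of Id3 did not lie below its uninduced range. Whether these changes are linked was not tested.

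**Figure D4:**
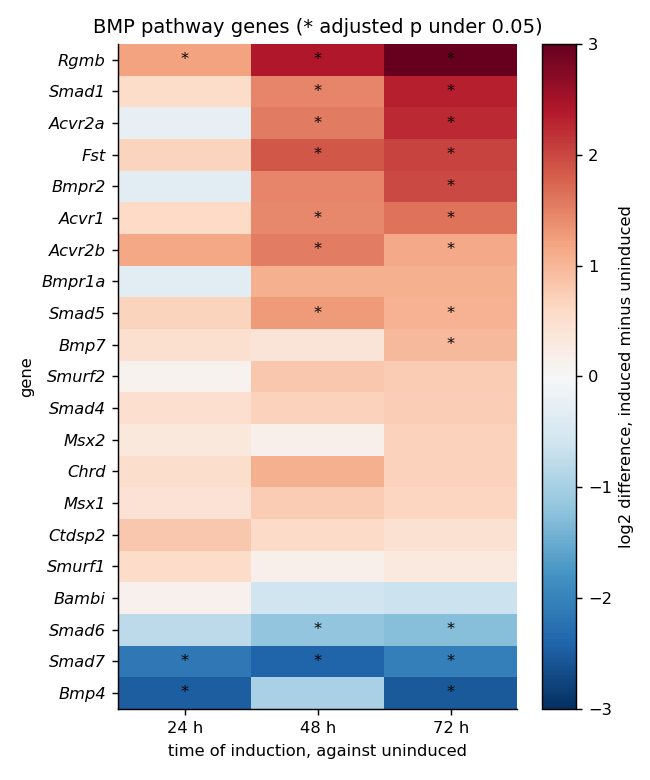
Log2 difference from uninduced cells (colour) of the 21 tested BMP pathway genes after 24, 48 and 72 h, with an asterisk where the adjusted p was under 0.05. Rgmb (2.98 at 72 h) heads the genes that were higher, and Smad7 and Bmp4 (-2.04 and -2.52 at 72 h) the genes that were lower.

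Among 20 tested tissue-specific bHLH factors, the partners that E proteins serve and Id proteins oppose, 5 were higher and 1 was lower at 24 h, 10 and 3 at 48 h, and 11 and 3 at 72 h. Against the shares of all genes given above, the 3 that were lower are close to the background. When replicate 1 of 24 h was left out, 6 were higher and 2 lower at 24 h, against 15.1% and 8.34% of all genes tested without it. The median difference of these factors was 0.60, 1.18 and 1.28. The 20 are those of 35 on the array that passed the filter. Neurog1, Neurod4, Olig2, Olig3, Bhlhe23 and Hand2 lay below 19.5, the lowest array median, on every uninduced array. They passed the filter only through induced arrays and could hardly be called lower, so the filter favours rises in these counts and medians. Neurog1, the induced gene, was 5.06 ± 0.27, 5.29 ± 0.27 and 4.58 ± 0.27 above uninduced cells, and is one of those counted. Nhlh1, a neuronal bHLH gene, had signals of 216 to 658, 1226 to 1989 and 1432 to 2054 at the 3 times, against 11.2 to 20.8 in uninduced cells, and rose by 3.72 ± 0.35, 5.80 ± 0.35 and 5.93 ± 0.35. Neurod4, a proneural relative, rose by 5.50 ± 0.39 at 48 h, and Nhlh2 by 6.20 ± 0.41 at 72 h.

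Among the bHLH genes that fell was Msc, known from muscle precursors and B cells. It had signals of at most 20.6 on any induced array, against 125 to 203 in uninduced cells, with differences of -2.59, -2.82 and -2.74 (SE 0.30). Tcf15, known from paraxial mesoderm and from ES cells leaving the naive state, had signals of 101 to 188 at 48 h and 47.1 to 81.6 at 72 h, against 506 to 739.6 in uninduced cells. Its differences were -2.07 ± 0.30 at 48 h and -2.99 ± 0.30 at 72 h, and its 24 h difference was 0.03 ± 0.30. Ascl2, known from trophoblast and named here after its values were seen, was the third gene lower at 48 and 72 h (-1.44 and -1.67, SE 0.39). The 24 h differences without replicate 1 were 5.17 for Neurog1, 3.34 for Nhlh1 and -2.65 for Msc. These calls on Nhlh1, Nhlh2, Neurod4, Msc and Tcf15 were kept under each of the 24 alternative settings.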

How the data were processed

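Total RNA of 12 cultures was made into biotinylated cRNA and hybridised to Affymetrix mouse arrays, per the labels' protocols. The authors deposited 1 linear intensity for each probe set on each array, and per the submitters' processing notes these are MAS5 signals. The sources used here do not state how MAS5 was set. The 2% trimmed mean of the deposited signals was 150 on each array, and medians ran from 19.5 to 32.8. No detection calls were used, so brightness alone stood for expression. The number of arrays limits the precision. Nothing says that the replicates came from separately thawed or derived cultures, so p-values measure the spread between these arrays, which may be technical.

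Of 45101 probe sets, 34945 had 1 gene symbol in the platform annotation, 932 had several, 9160 had none, and 64 were controls. No probe set of a member named several genes. The brightest probe set stood for each gene. A gene was tested where it exceeded the array median (percentile 50) on at least 3 of the 12 arrays, whichever their group, so a gene high in 1 group could pass through that group. All 7 members lay above the median on every uninduced array. The 4 group means of log2(signal + 16) were fitted in R 4.3.3 with limma 3.58.1, whose eBayes step let the prior variance follow the mean signal. The 6 two-sided contrasts were adjusted by Benjamini-Hochberg over 12629 genes. The fit was tested on simulated data. Alternatives changed the pseudocount, filter, normalization, probe set rule, array weights, replicate block, arrays fitted and each array left out in turn. Same-numbered arrays deviated together (correlation of deviations from group means over 0.1 in all 3 pairs) for 24 h and 48 h against uninduced, 48 h against 24 h and 72 h against 48 h, and not for 72 h against uninduced or 24 h. The main fit had no term for the replicate number in any comparison, so its SEs and p-values do not account for this joint deviation. A block for the number was used only among the alternatives. Any pairing by number comes from the data and not the labels. Promoter windows came from the RefSeq table of GRCm38.p6. The sources used here name no build for the arrays.

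The members and lists were chosen with earlier results of these data known. Named beside the 7 members are Neurog1, cell type markers, each member's 3 most similar genes and, per list and time against uninduced cells, up to 2 called rises and 2 called falls of largest size with no overlap between the groups. Unnamed transcripts were left out.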

Additional observations from a re-analysis of the deposited data

Results flagged for a closer look

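The differences from uninduced cells were not the same at 24 h and at later times for 5 members, by the limma test of the difference itself (48 h against 24 h and 72 h against 24 h, in which the shared uninduced arrays cancel). At 48 h against 24 h the log2 difference was 1.90 for Id1, 4.06 for Id3, 2.03 for Id4, 1.64 for Tcf4 and 1.81 for Tcf12. At 72 h against 24 h it was 3.65 for Id3, 1.62 for Id4, 1.58 for Tcf4 and 2.13 for Tcf12. The 48 h against 24 h calls on Id1, Tcf4 and Tcf12 were lost under 6, 13 and 5 of the 24 alternatives, and the 72 h against 24 h call on Tcf4 under 5. Id3 lay below uninduced cells at 24 h and not later. Id4 lay above uninduced cells at all 3 times and further above at 48 and 72 h. For Tcf4 and Tcf12 the array of replicate 1 at 24 h enlarged these values: without it they were 0.84 ± 0.20 and 1.06 ± 0.19 at 48 h, and 0.78 ± 0.20 and 1.38 ± 0.19 at 72 h, and all 4 passed (adjusted p = 0.00792, 0.00153, 0.00791 and 0.000121).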

How the results depend on the processing

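Each of the 42 differences of the members (7 genes, 6 comparisons) was recomputed under 24 alternatives, of which 2 were chosen after seeing the data (a filter on every array of at least 1 group, and leaving out the 4 arrays numbered 3). Of 1008 values, 926 kept direction and side of the threshold, 40 lost and 26 gained a call, and 16 changed sign. Id4 kept every call. The sign changes were all in differences that had not passed: Id1 at 72 h against 24 h gave -0.63 without the arrays numbered 3, and -0.43 to 0.54 over the leave-one-out fits; Id2 at 72 h against 48 h gave 0.0818 with array weights and -0.23 to 0.0614 leaving out arrays. Id3 and Tcf4 at 72 h against 48 h gave -1.15 to 0.20 and -0.16 to 0.10 leaving out arrays, and Tcf4 gave 0.012 without the arrays numbered 3. Tcf3 at 48 h against 24 h gave 0.20 with the mean of all probe sets, 0.285 with array weights, and -0.24 to 0.37 leaving out arrays. Tcf4 at 48 h against 24 h lost its call under 13 of the 24 alternatives. The cause was not tested.

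The count of members called changed as follows. At 24 h against uninduced it was 1 with a pseudocount of 64, 4 with array weights and 1 to 5 leaving out arrays, against 2. At 48 h against uninduced it was 3 without the arrays numbered 3, against 5. At 48 h against 24 h it was 2 without the arrays numbered 3, 2 in a fit of the 6 arrays compared alone and 2 to 6 leaving out arrays, against 5. At 72 h against 48 h it was 1 (Id1) with array weights, 1 with the 6 arrays alone and 0 to 1 leaving out arrays, against 0.

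Over all genes, array weights (whose estimate stopped before its tolerance) called 2231, 6939 and 8174 genes at 24, 48 and 72 h against uninduced, 3246 at 48 h and 5760 at 72 h against 24 h, and 2381 at 72 h against 48 h, where all arrays with equal weight called 1279, 4306, 5213, 2050, 3687 and 86. Without the arrays numbered 3, 398 and 2642 genes were called at 24 and 48 h against uninduced, 1216 and 2390 at 48 and 72 h against 24 h, and 0 at 72 h against 48 h. Fits of the 6 arrays alone called 347 at 24 h against uninduced, 975 and 1952 at 48 and 72 h against 24 h, and 438 at 72 h against 48 h. That last count was 19 and 226 with pseudocounts of 1 and 64, 50 with the filter at percentile 75 and 144 with the mean of all probe sets. Leaving out arrays gave 656 to 2906, 3158 to 6729 and 3987 to 7404 genes at 24, 48 and 72 h, 1124 to 2929 at 48 h and 2349 to 4717 at 72 h against 24 h, and 23 to 470 at 72 h against 48 h. The highest value of each range is that without replicate 1 of 24 h.

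List counts (both directions) moved too. BMP genes called at 48 h were 17 with array weights and 16 with the 6 arrays alone, and 2 to 8, 5 to 16 and 7 to 17 at 24, 48 and 72 h leaving out arrays. E-protein co-factors were 1 without the arrays numbered 3 and 0 with the 6 arrays alone at 24 h, 11 with either array weights or the 6 arrays alone at 48 h, and 15, 14 and 5 with array weights, the 6 arrays alone and without the arrays numbered 3 at 72 h; leaving out arrays gave 1 to 5, 3 to 11 and 6 to 14. Cell cycle inhibitors at 24 h were 5 with the mean of all probe sets, with array weights and with the replicate block, 1 without the arrays numbered 3, and 2 to 8 leaving out arrays; at 48 h 4 to 8. With the filter at percentile 75, Hes and Hey repressors were 3 at 48 h and bHLH factors 9 at 72 h.

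With the replicate block, 3 calls on members changed: the Id2 step from 24 to 48 h (0.99, adjusted p = 0.0237) and Tcf3 at 24 h against uninduced (1.00, adjusted p = 0.0423) passed, as did Id2 at 72 h against 24 h (0.88, adjusted p = 0.0246). In that last comparison 1 same-numbered pair had a correlation of deviations of 0.0467, below the 0.1 used to judge pairing. All 12 arrays correlated best with their own number. Detection was not assessed, so the lowest signals have no known order.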

Other observations

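Of 7 tested genes of the Hes, Hey and related bHLH families, 2 were higher and none lower at 24 h, 5 were higher and 1 lower at 48 h, and 3 were higher and 1 lower at 72 h. Of all genes tested, 7.36% were higher and 2.76% lower at 24 h, 21.1% and 13.0% at 48 h, and 23.8% and 17.5% at 72 h. The 24 h counts of the list were the same without replicate 1 of that time, and Hes5 and Hes6 then gave 1.88 and 3.38. Of all genes tested without that array, 15.1% were higher and 8.34% lower at 24 h. Only through induced arrays could Hes5, Hey2 and Heyl pass the filter, since their uninduced signals lay below every array's median. They could hardly be called lower. Hes5, a Notch target of neural progenitors, had signals of 31.5 to 159 at 24 h, 1398 to 1861 at 48 h and 532 to 1191 at 72 h, against 1.36 to 2.25 in uninduced cells. It rose by 2.35 ± 0.41, 6.47 ± 0.41 and 5.63 ± 0.41. Hes6, which is known to promote neuronal differentiation, was highest at 24 h, with rises of 3.82 ± 0.36, 2.65 ± 0.36 and 1.57 ± 0.36. Bhlhe40, a circadian repressor, fell at 48 h (-1.65 ± 0.44, adjusted p = 0.0115), a call lost without uninduced replicate 2 (adjusted p = 0.0511).

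Of 17 tested co-factors of E proteins, 2 were higher and 1 lower at 24 h, 5 and 1 at 48 h, and 6 and 3 at 72 h, and at 48 h that share was close to the 34.1% of all genes called in either direction. The list's median difference was 0.13, 0.14 and 0.29, against 0.10, 0.10 and 0.08 for all genes. When replicate 1 of 24 h was left out, 4 were higher and 1 lower at 24 h, with 1.46 for Cbfa2t2, 1.38 for Cbfa2t3 and -0.64 for Skp2. Of all genes tested without that array, 15.1% were higher and 8.34% lower. Of the co-repressor genes of the ETO family, Cbfa2t2 and Cbfa2t3 rose at 24 h, Cbfa2t2 by 1.30 ± 0.25 and Cbfa2t3 by 1.74 ± 0.45. The family's other gene, Runx1t1, rose by 2.23 ± 0.41 at 48 h and by 3.58 ± 0.41 at 72 h. Lmo2, an adaptor of bHLH complexes in blood, rose by 2.40 ± 0.41 at 72 h. Skp2, a ubiquitin ligase subunit, gave -0.84 ± 0.22 at 24 h and -0.75 ± 0.22 at 48 h. At 72 h Kat2b, an acetyltransferase, gave -1.40 ± 0.49 and Sin3a, a co-repressor, gave -0.88 ± 0.23. The calls on Cbfa2t2, Cbfa2t3, Skp2, Kat2b and Sin3a were each lost under at least 1 alternative setting (Kat2b under 8), and those on Runx1t1 and Lmo2 under none of the 24.

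Of 10 tested cell cycle inhibitor genes, 3 were higher at 24 h and 7 at both 48 and 72 h, with none lower. Of all genes tested, 7.36%, 21.1% and 23.8% were called higher at the 3 times. The list holds Cdkn genes, some of which E proteins are known to activate and Id proteins to restrain, and the Rb family (Rb1, Rbl1 and Rbl2). At 24 h the count was 5 with the replicate number as a block and 8 without replicate 1 of that time, when Cdkn1c and Cdkn1a gave 2.52 and 1.32. Without that array 15.1% of all genes tested were called higher at 24 h. The median difference of the list was 1.00, 1.17 and 1.28, against 0.10, 0.10 and 0.08 for all genes tested. Cdkn1c, which encodes p57, had signals of 1432 to 2444, 2171 to 2671 and 1497 to 2000.1 at the 3 times, against 140.1 to 500.5 in uninduced cells, and rose by 2.69 ± 0.36, 2.94 ± 0.36 and 2.58 ± 0.36. Cdkn1a, which encodes p21, rose by 1.71 ± 0.35 at 24 h (adjusted p = 0.00870), a call lost under 3 alternatives. Rb1, of the Rb family, rose by 2.30 ± 0.45 at 48 h and 2.20 ± 0.45 at 72 h.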
